A study of Phascolarctos cinereus with 3 samples.

Results

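Peaks of 2 centromere antibodies were described on koala scaffolds of intermediate size, those whose last listed peak of either antibody ends between 100 kb and 1 Mb from the scaffold start. There were 25 such scaffolds of the 346 with a peak. They held 219 of all 3170 peaks, 137 of the 2412 CENP-A peaks and 82 of the 758 CREST peaks. The position of the last peak is called the known extent of the scaffold. It is a lower bound of the length, since scaffold lengths were not used here. The scaffolds were chosen by the peak positions themselves, so the extents are a description and no test is made on them. At the lower limit, scaf00433 (102911 bp) was the first scaffold inside and scaf00526 (98768 bp) the first outside. At the upper limit, scaf00385 (910662 bp) was inside and scaf00375 (1139371 bp) outside.

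Chromatin of koala (Phascolarctos cinereus) endometrium, the inner layer of the uterus, was studied by chromatin immunoprecipitation and sequencing (ChIP-seq). One library used a rabbit antibody raised to CENP-A of a wallaby (Macropus eugenii), and 1 used CREST, a human IgG to centromere proteins. Each immunoprecipitation took 10 µg of antibody and chromatin of 100000 cells, and each library 1 ng of DNA, per the labels' protocols. A library of input chromatin belongs to the series and is not analysed here, and negative control antibodies yielded no measurable DNA, per the same protocols. How many animals were used is not given in the labels. With 1 library per antibody and an unknown read depth, each difference below describes these libraries, has no replicate check and no p-value.

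Centromeres are the chromosome regions on which the kinetochore, the attachment site of the spindle, is built. CENP-A replaces histone H3 in some of their nucleosomes and marks the active centromere, and CREST sera bind several centromere proteins, usually CENP-A, CENP-B and CENP-C. Centromeric DNA is often repetitive and is hard to assemble, so that pieces of it can lie on separate scaffolds or next to a scaffold's end. A scaffold of intermediate size is long enough to show a group of peaks together with sequence beside it in which no peak was called.

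Peaks of either list that overlapped by at least 1 bp were merged into islands, and islands at most 10 kb apart, counted as free bases between them, were joined. A joined group of at least 2 islands is called a cluster, and any other island is called alone. The 219 peaks formed 155 islands. Of these, 60 held peaks of both antibodies, 77 held CENP-A peaks only and 18 held CREST peaks only. On scaffolds of 20 to 100 kb these counts were 209, 111 and 34 of 354 islands. The 155 islands here formed 29 clusters on 15 of the 25 scaffolds, with 92 islands inside clusters and 63 alone. Inside clusters lay 58.4% of the CENP-A peaks (80 of 137, 95% Wilson interval 50.02 to 66.3%) and 73.2% of the CREST peaks (60 of 82, 62.7 to 81.6%). Over all 346 scaffolds the same definition took in 28.9% of the CENP-A and 67.7% of the CREST peaks. The CREST interval includes the value over all scaffolds, and the CENP-A interval lies above it. All intervals take the peaks as independent and measure counting error alone.

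**Figure D1:**
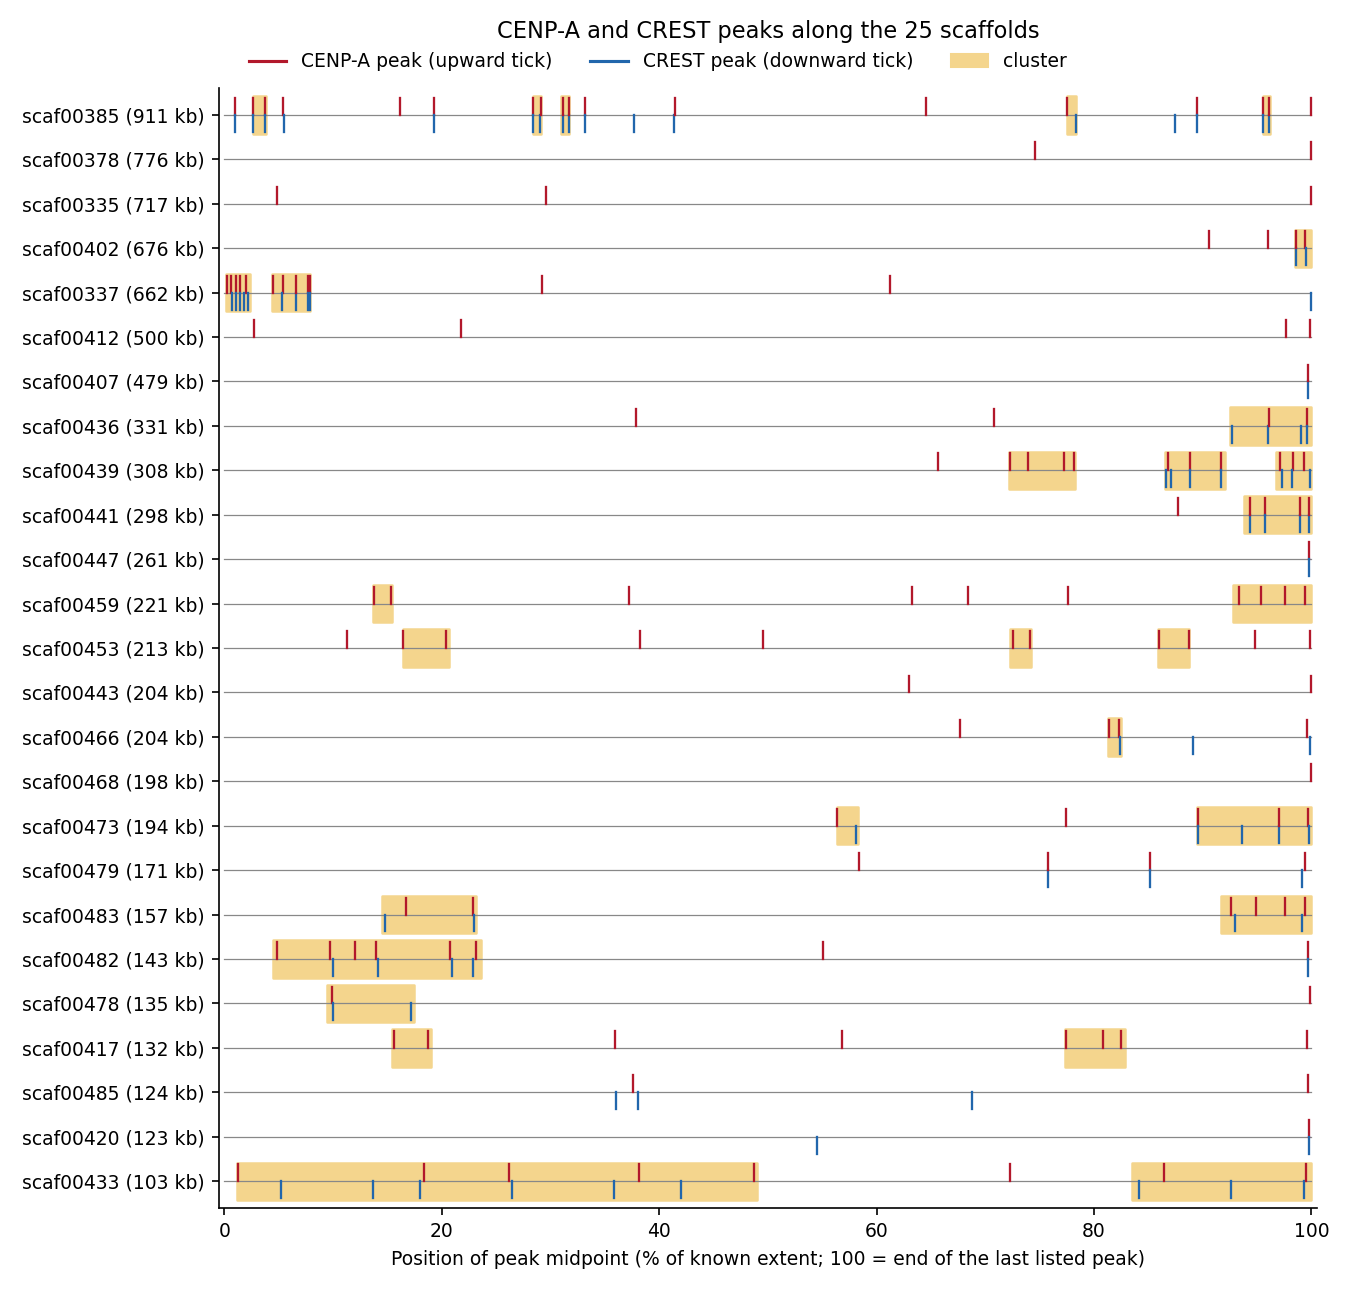
Peaks along the 25 scaffolds, each drawn from its start (0) to its known extent (100%), in order of known extent. Upward red ticks are CENP-A peaks, downward blue ticks are CREST peaks and shaded bands are the 29 clusters. Clusters sit at the left on scaf00337 and scaf00482, at the right on scaf00402 and scaf00441, and at 5 separate places on scaf00385.

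The clusters were short compared with the scaffolds. Their median length was 10430 bp (95% interval from ranks 7286 to 16975 bp, n = 29), and they ran from 2358 bp to 49209 bp. Together they spanned 385126 bp, which was 4.67% of the 8.24 Mb of known extent. They held 71.7% of the CENP-A bases and 78.9% of the CREST bases of these scaffolds. The joining distance helps to set the lengths, with medians of 6045 bp at 5 kb and 20213.5 bp at 20 kb. The number of islands in a cluster was 2 in 14 clusters and at least 3 in the other 15, with a maximum of 7. Both antibodies had peaks in 21 clusters, CENP-A alone had peaks in 8, and 0 clusters held CREST peaks only. Of the 68 clusters on scaffolds of 20 to 100 kb, 49 held both, 16 CENP-A only and 3 CREST only.

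Within clusters the called chromatin was interrupted. Peaks of either list covered 36.7% of the clusters' summed length, and from 7.59% to 82.8% of single clusters. The free gap between neighbouring islands of a cluster had a median of 2914 bp (2105 to 4629 bp, n = 63) and ranged from 68 bp to 9901 bp. Of these 63 gaps, 23 were no longer than 2000 bp and 43 no longer than 5 kb. Thus short gaps made up most of the 63, although gaps up to 10 kb were admitted. In the 15 clusters of at least 3 islands, the inner islands measured 1270 bp at the median (670 to 1967 bp, n = 34) and the first and last islands 1072 bp (792 to 2005 bp, n = 30). The widest island was an inner one in 6 of the 15. These intervals overlap almost wholly, so no narrowing toward the cluster limits was detectable.

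The longest cluster lay on scaf00433 from position 1187 to 50395 and was also the one with the most islands and the most bases under both antibodies. Its 7 islands held 5 CENP-A and 6 CREST peaks. Its 49209 bp were covered to 53.3% by either list, and 20026 bp lay in peaks of both. It contained the 2 widest CENP-A peaks of these scaffolds, of 11735 bp (33407 to 45141) and 10494 bp (21667 to 32160). CREST peaks of 8221 bp (23124 to 31344) and 6892 bp (33418 to 40309) lay inside them, the widest and the third widest of the CREST list here. A CENP-A peak of 410 bp closed the cluster, 23825 bp before the next peak. A second cluster of 16975 bp ran from 85937 to the known extent of 102911. The clusters together took up 64.3% of the known extent of scaf00433, against 0 to 19.1% on the other 24 scaffolds.

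Scaf00482 had the second longest cluster, from 6442 to 33722 (27281 bp), with 6 islands of 6 CENP-A and 4 CREST peaks. There CENP-A peaks covered 9141 bp and CREST peaks 2555 bp, nearly all of it (2473 bp) shared. Each of the 4 CREST peaks thus lay mostly within a wider CENP-A peak. After it 44751 bp were free of peaks.

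Scaf00337 carried 2 clusters near its start, of 5 islands each, from 1212 to 15468 (14257 bp) and from 29130 to 52522 (23393 bp). The first held 5 peaks of each antibody, with 5078 bp in common. The second held 5 CENP-A and 4 CREST peaks, with 7427 bp in common, most of it in 1 island of 6773 bp. A stretch of 13661 bp separated the clusters, and 140331 bp without a peak followed the second, the longest free stretch to the right of any cluster. Of the 22 peaks of this scaffold 19 lay in the first 52522 of its 662061 bp.

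The third longest cluster, on scaf00436 from 305895 to 330730 (24836 bp), showed a different arrangement. Its 2 CENP-A peaks covered 3308 bp and its 4 CREST peaks 3599 bp, but only 479 bp were in both, 7.45% of the bases that either list covered. On scaf00473 the cluster from 173191 to 193575 (20385 bp) consisted of narrow islands, the widest 895 bp, with 3 CENP-A and 4 CREST peaks over 11.8% of its length. On scaf00441 (279547 to 297970, 18424 bp) the 4 peaks of each antibody nearly coincided, with 94.1% of the covered bases in both lists. The cluster on scaf00402 (665826 to 676092, 10267 bp) was the most densely covered, at 82.8% of its length. It had 2 peaks of each antibody, which shared 97.7% of the covered bases. Its larger CENP-A peak measured 7469 bp and its larger CREST peak 7358 bp. The fifth place by number of islands was shared by 8 clusters of 4 islands.

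**Figure D2:**
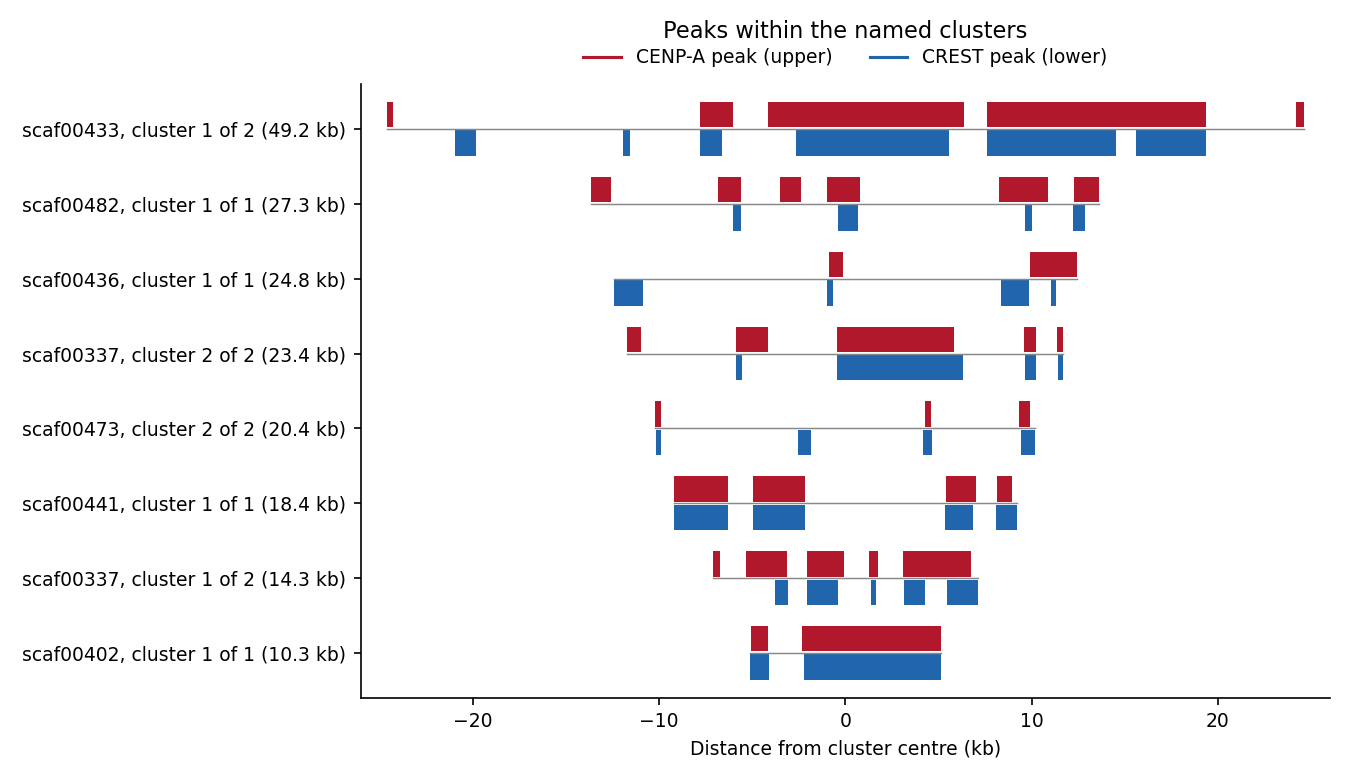
Peaks in the 5 longest clusters, the 4 with the most islands and the 5 with the most bases in both lists (8 clusters in all), drawn to scale by distance from the cluster centre in kb. Red boxes above each line are CENP-A peaks and blue boxes below it are CREST peaks. The boxes coincide on scaf00441 and scaf00402 and are staggered on scaf00436.

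Over the 21 clusters with both antibodies, the share of covered bases that lay in both lists had a median of 55.96% and reached 97.7%. It was at least 80% in 3 clusters (scaf00402, scaf00441 and, from 281715 to 289066, scaf00385) and at most 20% in 4. In 2 of these 4, on scaf00385 (705530 to 713807) and scaf00473 (109012 to 112811), neighbouring peaks of the antibodies had no base in common. CENP-A covered more bases than CREST in 13 of the 21. The cluster on scaf00433 alone contributed 27.5% of all cluster bases in both lists. These cases outside the longest clusters were named after their values were seen.

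Much of each scaffold held no peak. From the scaffold start to the first peak there were between 1186 bp and 612130 bp, with a median of 67186 bp (22775 to 137696 bp, n = 25). The longest such stretches were on scaf00402 (612130 bp), scaf00378 (578808 bp) and scaf00407 (475950 bp). What followed differed between the 3 scaffolds. On scaf00402, 2 CENP-A peaks of 420 and 339 bp came first and the cluster described above ended the known extent. Scaf00407 held 1 CENP-A peak of 2709 bp and 1 CREST peak of 2368 bp that overlapped. Scaf00378 held 2 CENP-A peaks, of 285 and 324 bp, and no CREST peak. In 16 of the 25 scaffolds a single free stretch made up at least 50% of the known extent, and over all 25 the longest one ranged from 23825 bp to 612130 bp (median 127974 bp). It ran from the scaffold start in 14 scaffolds. An unmeasured free stretch may follow the known extent.

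Clusters were flanked by free stretches longer than the gaps within them, partly by definition, since a flank between islands exceeds 10 kb. To the left of a cluster, up to the previous peak or the scaffold start, the median was 22775 bp (14418 to 30250 bp, n = 29). To the right, for the 21 clusters with a later peak, it was 24921 bp (14418 to 44751 bp). The other 8 clusters ended the known extent. Flanks over 50 kb occurred 6 times on the left, with a maximum of 117981 bp on scaf00385, and 4 times on the right. Of the 67 gaps over 10 kb between neighbouring islands, 22 exceeded 50 kb and 12 exceeded 100 kb. On scaffolds of 1 to 10 Mb such gaps had a median of 363694 bp (311874 to 440420 bp, n = 421), against 32899 bp (23825 to 40164 bp) here and 16815.5 bp (13357 to 20477 bp, n = 28) on those of 20 to 100 kb. The known extent bounds these gaps and also defines the classes, and its part in their order was not tested.

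Most clusters lay within 50 kb of the scaffold start or of the end of the known extent. Of the 29, 10 began within 50 kb of the scaffold start, 13 ended within 50 kb of the end of the known extent and 6 did neither. The 6 were on scaf00385 (3 clusters), scaf00439, scaf00453 and scaf00473. The end needs care, because a peak always lies there by definition, and 8 of the 13 clusters ended exactly there. Clusters were not recounted without these 8. The end zones, also called the ends below, are the first and last 50 kb of each known extent. Each zone summed to 1.25 Mb of the 8.24 Mb. Short scaffolds leave little between them, only 2911 bp on scaf00433. On scaf00417, scaf00478, scaf00482 and scaf00483 it was 32297, 34616, 42791 and 56502 bp. Islands were recounted instead. Without the last island of each scaffold, the first 50 kb of the 25 scaffolds held 40 islands, or 3.20 per 100 kb, and the last 50 kb held 45, or 3.60 per 100 kb. The 5.74 Mb between held 45 islands, or 0.784 per 100 kb. Islands close to the last one still favour the last 50 kb, while the first 50 kb does not border the peak that sets the extent. The first-to-between ratio stayed from 3.37 to 4.77 when each scaffold was left out in turn.

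The excess at the start was uneven between scaffolds. In the first 50 kb, 12 scaffolds held an island and 13 held none. The density there was above that between the ends in 11 scaffolds, below it in 10 and equal in 4, all without an island in either zone. Scaf00337 held 8 of the 40 islands, scaf00433 and scaf00482 6 each. In the 6 scaffolds of at least 500 kb the first 50 kb held 4.67 islands per 100 kb against 0.604 between, and in the 19 shorter ones 2.74 against 1.097. Of the 14 islands in the first 50 kb of the 6, scaf00337 held 8 and scaf00385 4. Without the last island of each scaffold, the last 50 kb held 1.67 per 100 kb in the 6 (5 islands). In the 19 it held 4.21 (40 islands). On the 56 scaffolds of 1 to 10 Mb the densities were 0.536 in the first 50 kb and 0.158 between. Before the first cluster of a scaffold lay a median of 3324144.5 bp (1764869 to 4785404 bp, n = 18) on those scaffolds, whose length allows greater distances, and 30250 bp here (12747 to 222419 bp, n = 15). The median here had a wide interval, and it varied with the definition of a cluster and the scaffolds taken. It was 193149 bp with peaks of at least 500 bp and 131465 bp at a joining distance of 5 kb. Clusters of at least 3 islands gave 137737 bp, and clusters from CREST peaks alone 94362.5 bp. On scaffolds with both lists it was 66639.5 bp. It stayed at 30250 bp at a joining distance of 20 kb and for clusters from CENP-A peaks alone. Known extents of 100 to 500 kb gave 32586 bp, and those of 50 kb to 1 Mb 31896 bp. All these values lie within the interval.

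**Figure D3:**
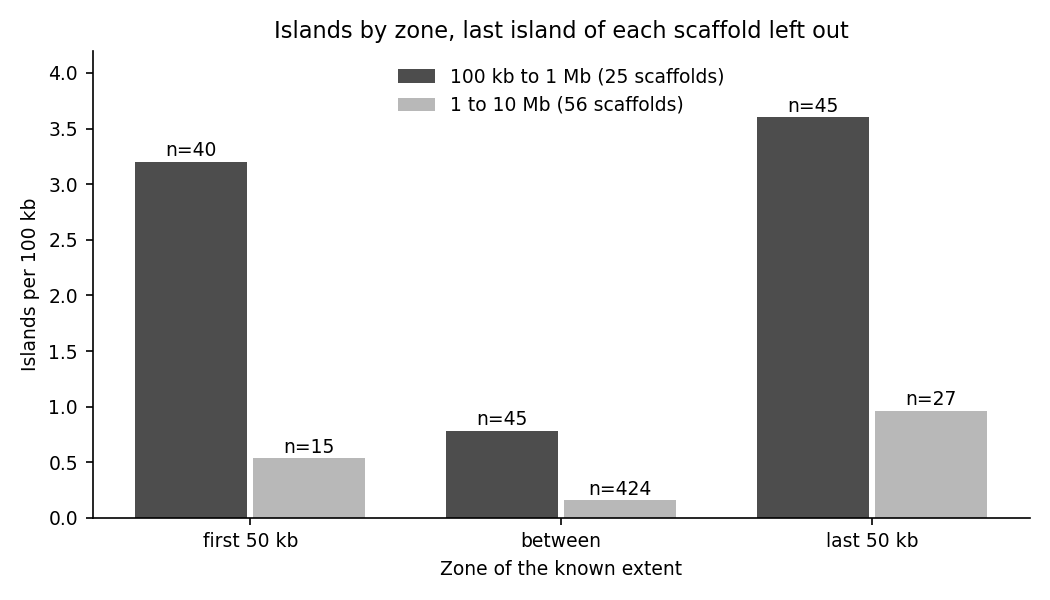
Islands per 100 kb in the first 50 kb, the last 50 kb and between them, for scaffolds of 100 kb to 1 Mb (dark) and of 1 to 10 Mb (light), without the last island of each scaffold. Bars are pooled over scaffolds and n is the number of islands. In the 25 scaffolds the first and last 50 kb of the known extent held 3.20 and 3.60 and the part between 0.784.

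Islands near the start had a higher median width and more often held both antibodies than those between the ends, in these pooled values. The median width was 1089.5 bp (707 to 1427 bp, n = 40) in the first 50 kb and 432 bp (385 to 703 bp, n = 45) between. Both antibodies were present in 50% of the former (20 of 40, 35.2 to 64.8%) and in 22.2% of the latter (10 of 45, 12.5 to 36.3%). The width intervals nearly touch, and they overlap when any one of scaf00337, scaf00439, scaf00453, scaf00473 or scaf00482 is left out. The intervals at the extremes are then 639 to 1744 bp in the first 50 kb without scaf00482 and 385 to 799 bp between without scaf00337. With each scaffold left out in turn, the median stayed at 936.5 bp or more in the first 50 kb and at 471 bp or less between. The share between the ends rested on scaf00385. Without it 2 of 31 islands (6.45%, 1.79 to 20.7%) held both antibodies, against 44.4% (29.5 to 60.4%, n = 36) in the first 50 kb. On the 19 scaffolds under 500 kb it was 0 of 23, with an upper Wilson limit of 14.3%. For the last island of each scaffold the median was 1014 bp (642 to 1404 bp, n = 25), and 12 of the 25 held both antibodies.

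CENP-A peaks inside clusters had a higher median width than those alone, but their intervals overlapped. The median was 981 bp (706 to 1313 bp, n = 80) inside and 625 bp (391 to 1002 bp, n = 57) outside. Peaks under 500 bp made up 31.3% of the former (25 of 80, 22.2 to 42.1%) and 49.1% of the latter (28 of 57, 36.6 to 61.7%). The inside median was the higher one in 9 of the 14 scaffolds that had CENP-A peaks in both places. The widest CENP-A peaks outside clusters were 3205 bp on scaf00485 (44816 to 48020), 2872 bp on scaf00385 (813004 to 815875) and 2709 bp on scaf00407 (475966 to 478674). All 3 overlapped a CREST peak, and none reached the 7469 bp of the third widest inside, on scaf00402.

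For CREST peaks the median width was 846.5 bp (597 to 1146 bp, n = 60) inside and 978.5 bp (437 to 1259 bp, n = 22) outside. These intervals overlapped as well, and the order of the medians was not stable. The order turned at a joining distance of 20 kb, where it was 930 bp inside and 732.5 bp outside. At 5 kb it was 1060 bp and 765 bp. It also turned without scaf00385, with 865 bp and 789.5 bp. Peaks of at least 500 bp gave 1234 bp inside and 1075 bp outside. Known extents of 100 to 500 kb gave 846.5 and 814 bp, and those of 50 kb to 1 Mb 1021.5 and 814 bp. Clusters from CENP-A peaks alone gave 1031 and 828 bp, and those from CREST peaks alone 1012 and 765 bp. The order stayed for clusters of at least 3 islands (865 and 967 bp), on scaffolds with both lists, and without scaf00337 or scaf00439. No direction is therefore given for CREST. Of the 22 CREST peaks outside clusters, the widest were 2788 bp (813067 to 815854) and 2326 bp (300696 to 303021) on scaf00385 and 2368 bp on scaf00407 (475951 to 478318). Each of these overlapped a CENP-A peak.

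Among CENP-A peaks, those that shared bases with CREST had the higher median width both inside and outside clusters. Among CENP-A peaks with a CREST overlap the median was 1424 bp inside (970 to 1983 bp, n = 45) and 1382 bp outside (687 to 2503 bp, n = 15). Those without an overlap had 639 bp inside (404 to 1010 bp, n = 35) and 405 bp outside (324 to 646 bp, n = 42). Outside, the intervals of these classes do not overlap, and inside they do slightly. Between inside and outside the intervals overlapped in both classes. A wide peak has more chance to overlap, so width and overlap are not independent measures. For overlapping CREST peaks the medians were 894.5 bp inside (564 to 1234 bp, n = 48) and 1080 bp outside (651 to 2121 bp, n = 16), and for the few others 846.5 bp inside (350 to 1282 bp, n = 12) and 413 bp outside (259 to 990 bp, n = 6).

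**Figure D4:**
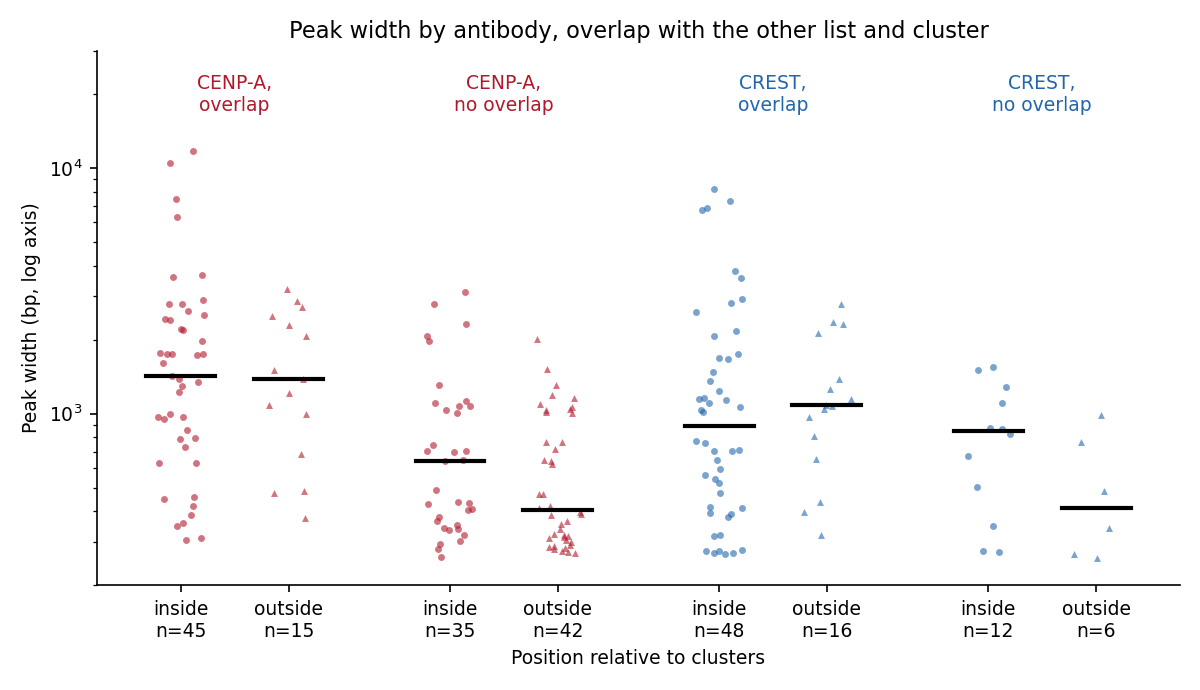
Width in bp (log axis) of each of the 219 peaks, by antibody, by overlap with the other list and by position inside (circles) or outside (triangles) clusters; black bars are medians. Overlapping CENP-A peaks have nearly the same median inside (1424 bp) and outside (1382 bp), and both lie above those without an overlap.

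Overlap between the antibodies was more frequent inside clusters for CENP-A. Of the CENP-A peaks inside clusters 56.3% overlapped a CREST peak (45 of 80, Wilson interval 45.3 to 66.6%), and of those outside 26.3% did (15 of 57, 16.7 to 39.0%). Over all scaffolds the CENP-A share was 22.4%. Part of the gap lay in scaffolds without any CREST peak. On the 17 scaffolds with both lists the shares were 71.4% inside (45 of 63, 59.3 to 81.1%) and 45.5% outside (15 of 33, 29.8 to 62.0%), with intervals that overlap slightly. For CREST, 80% of the peaks inside (48 of 60, 68.2 to 88.2%) and 72.7% outside (16 of 22, 51.9 to 86.9%) overlapped a CENP-A peak, against 74.8% over all scaffolds. Both CREST intervals include that value.

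Where exactly 1 peak of each list overlapped, the limits of the peaks were compared. Inside clusters (42 pairs) starts differed by a median of 74 bp (50 to 137 bp) and ends by 74.5 bp (33 to 153 bp). Both edges lay within 200 bp in 45.2% of these pairs (19 of 42, 31.2 to 60.1%). Outside (14 pairs) the medians were 45.5 bp (15 to 95 bp) and 26 bp (14 to 148 bp), and 71.4% (10 of 14, 45.4 to 88.3%) agreed within 200 bp at both edges. These intervals overlap, with few pairs outside. CENP-A gave the wider peak in 30 of 42 pairs inside and 12 of 14 outside. The ratio of CENP-A to CREST width had a median of 1.24 inside (1.05 to 1.43), above the 1.02 (1.01 to 1.03, n = 176) inside clusters on scaffolds of 20 to 100 kb. There 67.6% of the pairs (119 of 176, 60.4 to 74.1%) matched within 200 bp at both edges. On scaffolds of 1 to 10 Mb the ratio was 1.12 (1.02 to 1.33, n = 24) and 50% of the pairs matched (12 of 24, 31.4 to 68.6%), with intervals that overlap those here.

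To describe 1 list by clusters that it had not defined, clusters were also formed from each list alone. This alternative was added after seeing the data. The CENP-A peaks alone formed 24 clusters, which took in 52.4% of the CREST peaks (41.8 to 62.9%, n = 82) over 3.43% of the known extent. For CREST peaks touching them the median was 1031 bp (597 to 1481 bp, n = 43) and the others 828 bp (484 to 1085 bp, n = 39). The CREST peaks alone formed 18 clusters, which took in 35.8% of the CENP-A peaks (28.2 to 44.1%, n = 137) over 3.15% of the known extent. CENP-A peaks touching these had a median of 1424 bp (992 to 1983 bp, n = 49) and the others 487.5 bp (410 to 707 bp, n = 88). These last intervals do not overlap. The 88 include the 41 CENP-A peaks of scaffolds without a CREST peak, which could not touch such a cluster. Their median was 490 bp, against 981 bp on the scaffolds with both lists. The share of 35.8% counts them too. A wide peak also touches a cluster more easily. The part of either in the difference was not tested.

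Peak counts differed between the scaffolds, as did the known extents. The 3 scaffolds with the most peaks (scaf00385, scaf00337 and scaf00439) held 34.2% of them. Their known extents were 910662, 662061 and 308149 bp, out of 8.24 Mb in all. Per 100 kb of known extent these 3 held 3.84, 3.32 and 5.84 peaks. By that measure scaf00433 (16.5) and scaf00482 (9.10) held the most. Scaf00385 led both lists with 18 CENP-A and 17 CREST peaks, followed by scaf00337 with 12 and 10. The third place was taken by scaf00439 and scaf00453 for CENP-A (11 peaks each) and by scaf00433 for CREST (9). On scaf00385 islands of both antibodies lay from 7829 to 377690 and again from 813004 to 876088, and between these stretches 4 islands of a single antibody were listed. Islands of a single antibody also lay within the first stretch, at 147131 (CENP-A) and 343334 (CREST), and after the second, at 909661 (CENP-A). Of its 21 islands 14 lay more than 50 kb from both the scaffold start and the end of the known extent. Of its 35 peaks 17 lay outside clusters. Its 5 clusters had 2 islands each and measured from 6394 bp to 10430 bp. Without scaf00385 the median width of CENP-A peaks outside clusters was 472.5 bp in place of 625 bp, and the share of them that overlapped was 18.8% in place of 26.3%.

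Of the 25 scaffolds, 8 carried CENP-A peaks only, and 0 carried CREST peaks only. On the 80 scaffolds of 20 to 100 kb, 21 carried CENP-A peaks only and 5 CREST peaks only. The CENP-A list is the longer one, with 137 peaks against 82 for CREST here. The 8 scaffolds here were scaf00335, scaf00378, scaf00412, scaf00417, scaf00443, scaf00453, scaf00459 and scaf00468, with 41 CENP-A peaks in all. The median width of their CENP-A peaks was 490 bp (385 to 1010 bp, n = 41), against 981 bp (700 to 1210 bp, n = 96) on the 17 scaffolds with both lists. The intervals overlap. On 3 of them lay 7 clusters of CENP-A peaks alone, namely scaf00417, scaf00453 and scaf00459. The longest of the 7, on scaf00459 (205449 to 221325, 15877 bp), held 4 peaks of 1967 to 3115 bp that covered 64.1% of its length. The other 6 had 2 or 3 islands, none wider than 1126 bp. An eighth cluster without a CREST peak lay on scaf00439 (222420 to 241219), next to 2 clusters with both antibodies. Since the depth is unknown, the lack of a CREST peak does not show that the CREST antigen was absent.

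By cluster content these scaffolds stood between the smaller and the larger class. Clusters spanned 48.4% of the known extent on the 80 scaffolds of 20 to 100 kb, 4.67% here and 0.0914% on the 56 scaffolds of 1 to 10 Mb. The share of CENP-A peaks inside clusters was 89.9% (86.2 to 92.7%), 58.4% and 12.8% (10.1 to 16.1%) in this order, with no overlap of the intervals. For CREST it was 91.2% (87.1 to 94.1%), 73.2% and 38.8% (29.2 to 49.5%). The known extent bounds the room outside a cluster and also defines the classes. Its part in the order of these shares was not tested. Cluster length is bounded by the known extent as well. On scaffolds of 20 to 100 kb the median known extent was 31280.5 bp. There 53 of the 68 clusters ended the known extent, against 8 of the 29 here. The median cluster length was 21771 bp (17701 to 23804 bp, n = 68) in that class, above the 10430 bp here. On scaffolds of 1 to 10 Mb it was 9236 bp (6507 to 11547 bp, n = 23), within the interval here.

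CENP-A peaks outside clusters were narrowest on the larger class. Their median width was 618 bp (429 to 1104 bp, n = 33) on scaffolds of 20 to 100 kb and 625 bp here, but 354 bp (337 to 388 bp, n = 416) on those of 1 to 10 Mb, where 3.37% of them (14 of 416, 2.02 to 5.57%) overlapped a CREST peak against 26.3% here. The width intervals were 3 bp apart, and without scaf00385 the median here was 472.5 bp (375 to 1000 bp, n = 48), whose interval overlaps that of the larger class. Inside clusters the CENP-A widths were nearer, at 1348 bp (1236 to 1547 bp, n = 295), 981 bp and 886 bp (551 to 1142 bp, n = 61). For CREST peaks inside clusters, the median of 1507.5 bp (1231 to 1878 bp, n = 238) on scaffolds of 20 to 100 kb lay above the 846.5 bp here, while the 851 bp (556 to 1191 bp, n = 33) on those of 1 to 10 Mb did not differ beyond the intervals.

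**Figure D5:**
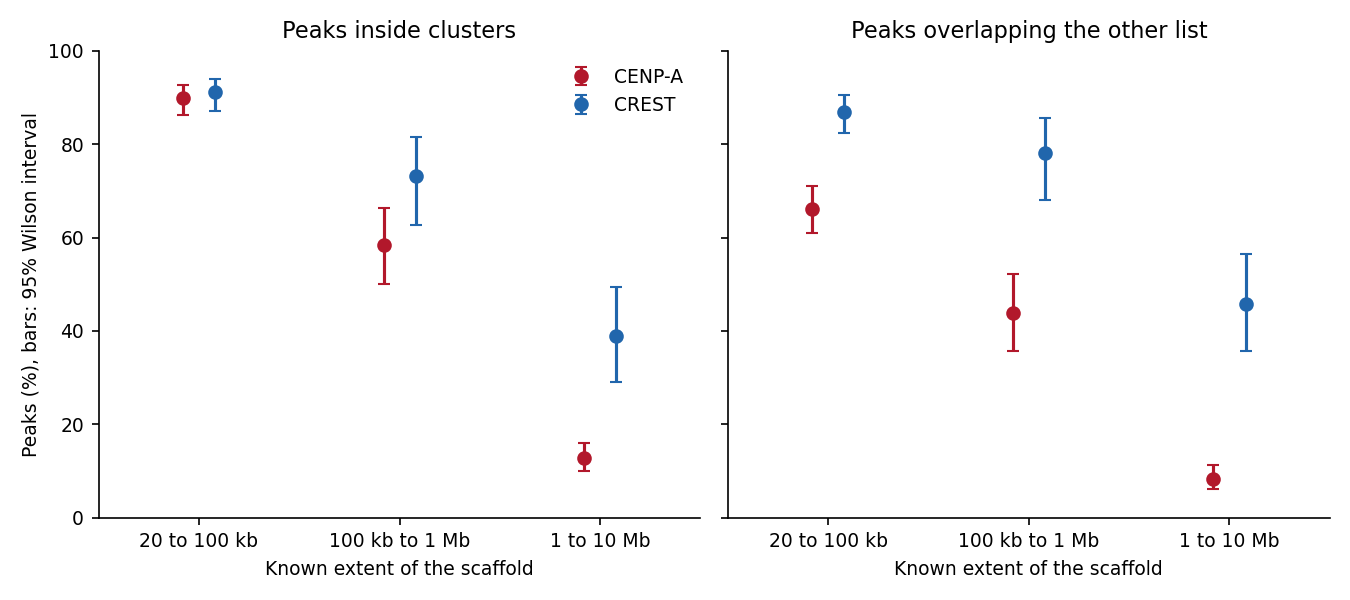
Percent of CENP-A (red) and CREST (blue) peaks inside clusters (left) and overlapping a peak of the other list (right), for 3 classes of known extent. Points are shares of peaks and bars are 95% Wilson intervals, and the scaffolds of 100 kb to 1 Mb lie between the other classes for both lists.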

How the data were processed

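The 2 peak lists give scaffold, start and end only, in 3 columns. They carry no height, fold or p-value, and positions (in bp) are as deposited by the authors, on scaffolds named for the assembly phaCin_unsw_v4.1. Trimmomatic 0.36, Bowtie2 and MACS2 2.0.10.20131216 are named in the submitters' processing notes. The sources used here do not state thresholds, the use of input or the placement of reads with several matches, which could move the number, width and joining of peaks in repeats. Each list comes from 1 library. Starts were read as counting from 0 and are printed counting from 1. Islands, clusters and intervals (Wilson for shares, binomial ranks for medians, both 95%) were computed with Python 3.11.15, numpy 2.4.6, pandas 2.3.3 and scipy 1.17.1. The counts of clusters, of overlaps and of peaks outside clusters, and the interval of medians, were tested on simulated data. The other steps were not. Scaffold class and definitions were chosen with earlier results of these data known. Regions named were the 5 longest clusters, the 5 with most islands and most shared bases, the 3 scaffolds with most peaks of each list, the 3 widest peaks of each list inside and outside clusters, the 3 longest free starts and the scaffolds with 1 list. No genome sequence or gene positions were used, because the reference gene table is of a different assembly (phaCin_HiC).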

Additional observations from a re-analysis of the deposited data

How the results depend on the processing

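No paired analysis was possible because each antibody has a single library, and for the same reason leaving out replicates was not possible. At unknown depth, a stretch without a peak need not lack signal. A value with an interval counted as moved when it left that interval, and a count, density or share of bases when it changed by over 1.5 times. Over 17 results, 156 recomputed values stayed within these bounds and 29 moved. Peaks of at least 500 bp gave 17 clusters on 2.90% of the known extent, 2.24 islands per 100 kb in the last 50 kb and 0.331 between the ends, and median widths of 1744 bp (CENP-A inside), 1078 bp (CENP-A outside) and 1234 bp (CREST inside). Joining at 5 kb gave a median cluster length of 6045 bp, 2.67% of the known extent, and 46.0% of CENP-A and 54.9% of CREST peaks inside. Joining at 20 kb gave 20213.5 bp, 8.17%, 71.5% and 82.9%. Clusters of at least 3 islands numbered 15, with a median of 17098 bp, 40.1% of CENP-A and 54.9% of CREST peaks. Known extents of 100 to 500 kb had 7.44% in clusters. From 50 kb to 1 Mb, 7.11% lay in clusters, with 68.3% of CENP-A peaks, 67.4% of which overlapped a CREST peak. On scaffolds with both lists, 71.4% of CENP-A peaks inside and 45.5% outside overlapped. Clusters from CENP-A alone, an alternative chosen after seeing the data, held 52.4% of CREST peaks. Those from CREST alone numbered 18 and held 35.8% of CENP-A peaks, with a median of 1424 bp. The median CENP-A width was higher inside than outside clusters in all of these settings that give both values, and so was the share that overlapped. The order of the CREST widths changed. These settings reuse the same peaks of 1 library per antibody. In the main setting the CENP-A width intervals overlap (706 to 1313 bp inside, 391 to 1002 bp outside). The inside median was the higher one in 9 of 14 scaffolds.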
